A study of Mus musculus with 48 samples.

Results

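Arntl and Clock were followed in 4 sample groups of NIH 3T3 mouse fibroblasts, as 2 of the 11313 gene symbols that the deposited exon and intron tables hold; they were chosen as the gene targeted by the hairpin and the gene of its partner protein. The shBmal1 groups came from a stable line carrying a hairpin against Bmal1, the gene that the tables call Arntl, and the shCTRL groups from a stable line carrying a control hairpin. Both lines were synchronised by 2 h in 50% horse serum and sampled every 2 h, at time points labelled 24 to 46 h. Each culture gave a library of total RNA and a library of newly made RNA labelled with 4sU, a uridine analogue that allows biotin pull-down, so that the groups shBmal1 total, shBmal1 4sU, shCTRL total and shCTRL 4sU had 12 libraries each, with 1 library per time point. Each hairpin was represented by 1 line, so the lines differ in the hairpin and in anything else that separates them, and these cannot be told apart.

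Arntl encodes BMAL1 and Clock encodes CLOCK, the bHLH-PAS proteins that pair to form the activator of the mammalian circadian clock. The pair binds E-box elements and switches on its own repressors, the Period and Cryptochrome genes, and also the nuclear receptor genes Nr1d1 and Nr1d2, which encode REV-ERB alpha and beta. REV-ERB proteins repress, and ROR proteins activate, genes with RORE elements, among them Arntl, which gives Arntl RNA a daily rhythm in most tissues, while Clock RNA usually changes little through the day. A short hairpin acts through the RNA interference machinery on the mature target RNA, and intron reads come mostly from transcripts not yet spliced.

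Promoter windows of the members are shown because they differ in these elements. In RefSeq annotation on GRCm38.p6, Arntl lies on chromosome 7 from 113178471 to 113314126 and Clock on chromosome 5 from 76209868 to 76305603. Each window below runs from 250 bases before to 50 bases after an annotated start site, and capitals mark matches to TAGGTNA, a core of the RORE, searched on both strands.
Arntl, chr7:113207261-113207560, plus strand: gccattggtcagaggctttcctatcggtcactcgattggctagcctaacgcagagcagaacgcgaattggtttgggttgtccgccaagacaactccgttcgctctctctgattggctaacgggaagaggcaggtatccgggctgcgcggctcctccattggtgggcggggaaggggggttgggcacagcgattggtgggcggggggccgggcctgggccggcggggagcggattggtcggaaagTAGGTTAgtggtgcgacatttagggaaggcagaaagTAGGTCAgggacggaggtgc
Clock, chr5:76304743-76305042, minus strand: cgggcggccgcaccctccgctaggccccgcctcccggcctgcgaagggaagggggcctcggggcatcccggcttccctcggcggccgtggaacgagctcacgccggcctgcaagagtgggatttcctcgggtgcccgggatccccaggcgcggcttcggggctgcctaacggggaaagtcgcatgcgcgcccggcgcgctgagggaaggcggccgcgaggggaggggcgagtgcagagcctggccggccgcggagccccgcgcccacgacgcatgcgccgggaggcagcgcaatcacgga
This Arntl window holds 2 matches, TAGGTTA beginning 6 bases before the start site and TAGGTCA beginning 30 bases after it. The other Arntl window searched, chr7:113207215-113207514, holds 1, the same TAGGTTA. Of 32851 RefSeq promoter windows of the same 300 bases, 8.29% hold at least 1 match and 0.557% hold 2 or more. The Clock window holds none, and neither do the other Clock windows searched, chr5:76304499-76304798 and chr5:76303453-76303752. No member window holds the E-box CACGTG, which 7.15% of the windows hold, or the D-box TTATGNAA, which 3.38% hold. The annotated genes reach upstream of these windows, to 113178471 in Arntl and 76305603 in Clock. Starts at those ends were not searched. Which starts the fibroblasts use was not tested.

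Total exon RPKM (reads per length of exon and per library total, scaled so that the median gene agrees between libraries) served as the RNA level. Arntl RNA varied less with time in shBmal1 cells than in shCTRL cells, where it rose and fell steeply. In shBmal1 its total exon level ranged from 2.25 RPKM at 24 h to 4.72 RPKM at 34 h, with a median of 3.96 RPKM. In shCTRL it ranged from 1.33 RPKM at 24 h to 17.4 RPKM at 34 h, with a median of 8.76 RPKM, so the ranges of the lines overlap. Means were 3.74 ± 0.724 RPKM in shBmal1 and 9.26 ± 6.03 RPKM in shCTRL (SD, n = 12 each). The shBmal1 minus shCTRL difference was -0.92 ± 0.081 on the log2 scale (limma adjusted p = 3.59e-09), a level 0.529 times that of shCTRL. Of all 10910 genes tested, 33.1% were called lower in shBmal1 by the same rule, an adjusted p under 0.05, and Arntl ranked 302 by the size of its difference. In these bulk cultures, fewer cells of a kind and less RNA per cell cannot be told apart.

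The deficit was concentrated around the shCTRL peak. Arntl was at 0.258 times the shCTRL level at 38 h, and between 0.269 and 0.312 times at 32, 34, 36 and 40 h. At 24 h the order of the lines was the other way round, with 2.25 RPKM in shBmal1 and 1.33 RPKM in shCTRL. It was also higher in shBmal1 at 26 h, with 3.32 RPKM in shBmal1 and 2.26 RPKM in shCTRL, and at 46 h, with 4.15 RPKM in shBmal1 and 3.29 RPKM in shCTRL. The shBmal1 line was therefore lower at 9 of 12 time points, and the hairpin line kept measurable Arntl RNA throughout, with 409 to 973 exon reads per total RNA library in shBmal1 and 265 to 3254 in shCTRL.

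**Figure D1:**
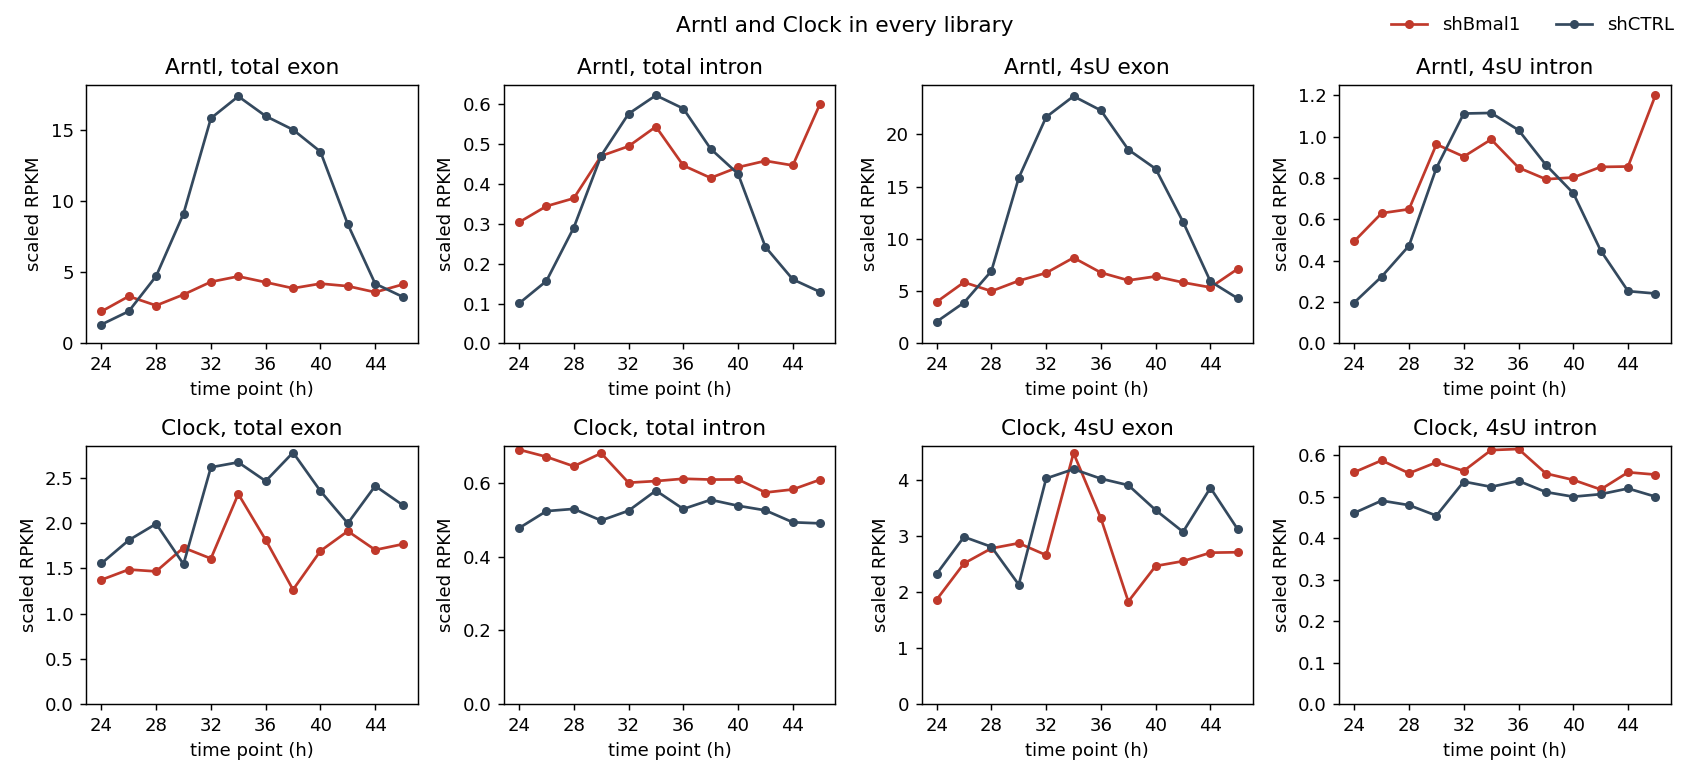
Scaled RPKM of Arntl (upper row) and Clock (lower row) at each time point in total exon, total intron, 4sU exon and 4sU intron; each point is 1 library, red for shBmal1 and dark for shCTRL. Arntl exon RNA stays between 2.25 and 4.72 RPKM in shBmal1 total RNA and reaches 17.4 RPKM in shCTRL, while its intron RNA reaches similar heights in both lines.

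Arntl introns behaved differently from its exons. Total intron RPKM ranged from 0.303 to 0.600 in shBmal1, with a median of 0.446, and from 0.1002 to 0.621 in shCTRL, with a median of 0.357. The intron level was higher in shBmal1 by 0.51 ± 0.063 on the log2 scale (limma adjusted p = 1.76e-06), where 29.3% of 10014 genes were called higher. In 4sU introns, the measure of new synthesis, Arntl ranged from 0.495 to 1.20 RPKM in shBmal1, with a median of 0.852, and from 0.198 to 1.12 RPKM in shCTRL, with a median of 0.600. That difference was 0.57 ± 0.081 (limma adjusted p = 1.57e-05), with 22.1% of 10496 genes called higher. The intron ranges of the lines overlap in both kinds of RNA. With no time terms in the model neither intron difference passed (limma adjusted p = 0.0988 for total and 0.0857 for 4sU). Without scaling, the median gene stood at -0.45 in 4sU introns and Arntl at 0.11 (limma adjusted p = 0.187).

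The intron difference came from the hours of the shCTRL trough. At 46 h, the highest intron library of the shBmal1 line in both kinds of RNA, 4sU intron RNA was 1.20 RPKM in shBmal1 and 0.242 RPKM in shCTRL, a ratio of 4.97. At 24 h it was 0.495 RPKM in shBmal1 and 0.198 RPKM in shCTRL, a ratio of 2.498. In total introns the 46 h library was the one that correlated least with the other shBmal1 libraries. Around the shCTRL peak, from 32 to 38 h, shBmal1 4sU introns were at 0.813 to 0.920 times the shCTRL level, while total exons at the same time points were at 0.258 to 0.274 times. In all, Arntl 4sU introns were higher in shBmal1 at 8 of 12 time points and total introns at 7 of 12.

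4sU exon reads, which hold new RNA both before and after splicing, showed the exon pattern. They ranged from 3.98 to 8.21 RPKM in shBmal1, with a median of 6.02, and from 2.08 to 23.7 RPKM in shCTRL, with a median of 13.7. The difference was -0.72 ± 0.079 (limma adjusted p = 3.28e-07), with 26.9% of 11014 genes called lower; with no time terms it missed the threshold (limma adjusted p = 0.0571). Newly made exon RNA of Arntl was thus lower in shBmal1 while newly made intron RNA was higher. The order of the mean levels was shBmal1 below shCTRL in both exon layers and above it in both intron layers.

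**Figure D2:**
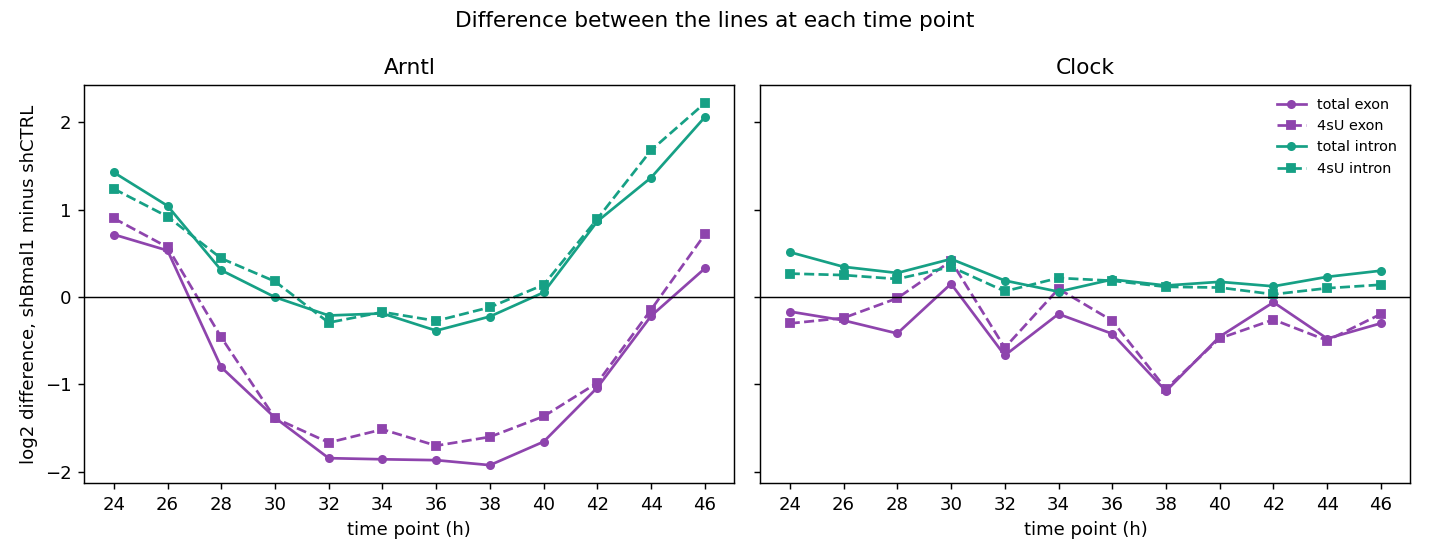
Log2 difference, shBmal1 minus shCTRL, of Arntl (left) and Clock (right) at each time point, purple for exons and green for introns, solid for total RNA and dashed for 4sU RNA; each point compares 1 shBmal1 with 1 shCTRL library. Arntl exons fall to -1.93 at 38 h while introns reach no lower than -0.39; Clock introns lie above 0 at all 12 time points.

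The exon minus intron difference of the same library relates mature RNA to unspliced RNA. For Arntl in total RNA it was 3.05 ± 0.171 log2 units in shBmal1 and 4.48 ± 0.484 in shCTRL (SD, n = 12 each). The lowest and highest libraries were 2.78 and 3.24 in shBmal1 and 3.57 and 5.02 in shCTRL, so the lines do not overlap. The line difference was -1.43 ± 0.060 (limma adjusted p = 3.27e-13), below 0 at 12 of 12 time points, and 25.2% of 9901 genes were called lower. Arntl ranked 43 of them by the size of its difference in either direction. Total exon minus 4sU intron of the same culture gave -1.49 ± 0.069 (limma adjusted p = 2.49e-13), with 24.8% of 10297 genes called lower. In exon minus intron, 30.8% of genes lay below Arntl in shBmal1 and 66.5% in shCTRL.

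Arntl exon RNA was rich in new RNA in both lines. The 4sU exon minus total exon value, on which the median gene lies near 0 after scaling, averaged 0.70 ± 0.116 in shBmal1 and 0.50 ± 0.155 in shCTRL (SD, n = 12 each). Of 10869 genes, 94.4% lay lower in shBmal1 and 88.1% in shCTRL. The line difference of 0.20 ± 0.042 passed (limma adjusted p = 0.00123), was above 0 at 11 of 12 time points, and 16.7% of genes were called higher.

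The daily rhythm of Arntl was small in shBmal1 beside that in shCTRL. The fit holds components of 24 h and 12 h, and peak times and fitted ranges are of the 24-h component. The 24-h amplitude is the height of that component's peak above its mean, in log2 units. In shBmal1 total exons it was 0.30 ± 0.081 with a peak at 37.2 ± 1.03 h, just past the threshold (limma adjusted p = 0.0492, where 11.1% of genes were called). It missed the threshold when any single time point other than 26, 32 or 46 h was left out, and under 5 further settings (limma adjusted p up to 0.244). Amplitudes in shBmal1 were 0.15 ± 0.063 in total introns (limma adjusted p = 0.335, 5.16% of genes called), 0.22 ± 0.079 in 4sU exons (0.125, 17.9% called) and 0.17 ± 0.081 in 4sU introns (0.338, 5.82% called). Without the 46 h libraries these last 3 amplitudes were 0.23, 0.30 and 0.29 and passed (limma adjusted p = 0.0104, 0.0242 and 0.0122), and that in 4sU exons also passed without 26 h (0.28, 0.0423).

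In shCTRL the rhythm of Arntl was large. The amplitude in total exons was 1.59 ± 0.081 with a peak at 35.9 ± 0.194 h (limma adjusted p = 1.20e-10), a 9.09-fold fitted range from trough to peak. It ranked 2 by amplitude among the 10910 genes, of which 3.6% were called rhythmic in shCTRL. By the 24-h component introns varied less and peaked earlier, while the highest single library was at 34 h in every layer. Total introns had an amplitude of 1.16 ± 0.063 with a peak at 34.8 ± 0.206 h (limma adjusted p = 2.02e-09, 1.34% of genes called), and 4sU introns 1.18 ± 0.081 with a peak at 34.6 ± 0.262 h (9.60e-08, 1.12% called). 4sU exons peaked at 35.5 ± 0.202 h with a 7.997-fold fitted range (limma adjusted p = 1.05e-09, 1.98% called).

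The rhythms of the lines differed in every layer. The difference of the 24-h terms was 1.32 in total exons (limma adjusted p = 3.33e-06, 0.807% of genes called) and 1.05 in total introns (2.18e-05, 0.0999% called), where Arntl had the smallest p of all genes. In 4sU exons it was 1.28 (limma adjusted p = 1.48e-05, 1.06% called) and in 4sU introns 1.05 (0.000341, 0.286% called).

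The distance between the exon and intron curves was also fitted for a rhythm. In shBmal1 the exon minus intron amplitude in total RNA was 0.15 ± 0.060 and did not pass (limma adjusted p = 0.376, 0.212% of genes called). In shCTRL it was 0.59 ± 0.060 with a peak at 38.2 ± 0.394 h (limma adjusted p = 0.000250), in a test that called 0.151% of genes. Total exon minus 4sU intron in shCTRL gave 0.61 ± 0.069 and a peak at 38.5 ± 0.430 h (limma adjusted p = 0.000465, 0.204% called). The difference between the lines in the exon minus intron rhythm was 0.44 and did not pass (limma adjusted p = 0.163), so a loss of it in shBmal1 was not shown; with a pseudocount 10 times larger it was 0.57 and passed (0.00135).

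No 12-h component of Arntl passed in the scaled data with all libraries. In shBmal1 the 12-h amplitude was 0.24 ± 0.063 in total introns (limma adjusted p = 0.0750) and 0.28 ± 0.081 in 4sU introns (0.156). The total intron value was 0.31 and passed without scaling (limma adjusted p = 0.0449). In shCTRL total exons its 12-h amplitude was 0.40 ± 0.081, the smallest raw p of the 10910 genes (0.000314) but an adjusted p of 0.931 by limma; without the 46 h libraries the amplitude was 0.45 and passed (limma adjusted p = 0.0380).

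In total exons Clock RNA had a lower mean level than Arntl RNA in both lines. Per length, the Arntl level was on average 2.24 times the Clock level in shBmal1 total exons and 4.00 times in shCTRL, with a range over time points of 1.64 to 3.07 in shBmal1 and 0.856 to 6.50 in shCTRL. In shBmal1 the total exon level of Clock ranged from 1.27 RPKM at 38 h to 2.32 RPKM at 34 h, with a median of 1.70. In shCTRL it ranged from 1.55 RPKM at 30 h to 2.78 RPKM at 38 h, with a median of 2.28. The ranges overlap. The line difference was -0.36 ± 0.081 (limma adjusted p = 0.000508), and shBmal1 was lower at 11 of 12 time points, with 30 h as the exception. In 4sU exons Clock averaged 2.73 ± 0.684 RPKM in shBmal1 and 3.33 ± 0.694 RPKM in shCTRL (SD, n = 12 each). That difference of -0.28 ± 0.103 passed narrowly (limma adjusted p = 0.0264) and did not pass without 32 h (-0.20, 0.102), 38 h (-0.22, 0.0824) or 44 h (-0.26, 0.0704), on the RPKM as deposited (-0.21, 0.0803) or with no time terms (0.0557).

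Clock introns went the other way. Total introns ranged from 0.574 to 0.690 RPKM in shBmal1, with a median of 0.609, and from 0.477 to 0.579 RPKM in shCTRL, with a median of 0.525. The shBmal1 level was higher at 12 of 12 time points, by 0.25 ± 0.032 (limma adjusted p = 3.40e-06). 4sU introns ranged from 0.517 to 0.615 RPKM in shBmal1, with a median of 0.559, and from 0.454 to 0.538 RPKM in shCTRL, with a median of 0.503. They too were higher at 12 of 12 time points, by 0.17 ± 0.032 (limma adjusted p = 0.000326). Without scaling of the 4sU intron RPKM the sign turned, to -0.29, with the median gene at -0.45. Clock intron length in the deposited values was 85181 bases in total RNA and 84894 bases in 4sU RNA of both lines, so the comparison of lines used the same length.

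Clock exon minus intron was 1.45 ± 0.268 in shBmal1 and 2.06 ± 0.235 in shCTRL total RNA (SD, n = 12 each). The line difference was -0.61 ± 0.080 (limma adjusted p = 6.08e-06), below 0 at 12 of 12 time points. Against 4sU introns it was -0.53 ± 0.076 (limma adjusted p = 9.70e-06). Without scaling that value was 0.01 and did not pass (limma adjusted p = 0.905), with the median gene at 0.53. Clock stood low among genes in this measure in both lines, with 6.20% of genes lower in shBmal1 and 12.5% in shCTRL. Its 4sU/total exon value was 0.65 ± 0.173 in shBmal1 and 0.57 ± 0.0878 in shCTRL, and the difference of 0.08 ± 0.057 did not pass (limma adjusted p = 0.309). In introns the members parted: 4sU intron minus total intron was 0.87 in shBmal1 and 0.81 in shCTRL for Arntl, and -0.13 in shBmal1 and -0.05 in shCTRL for Clock, where the median gene stood at 0.45 in shBmal1 and 0.44 in shCTRL. The sign of the shCTRL value of Clock depends on the scaling. As deposited, Clock introns in shCTRL were at 0.569 RPKM in 4sU and 0.491 RPKM in total RNA at 24 h. At 34 h they were at 0.610 RPKM in 4sU and 0.580 RPKM in total RNA.

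**Figure D3:**
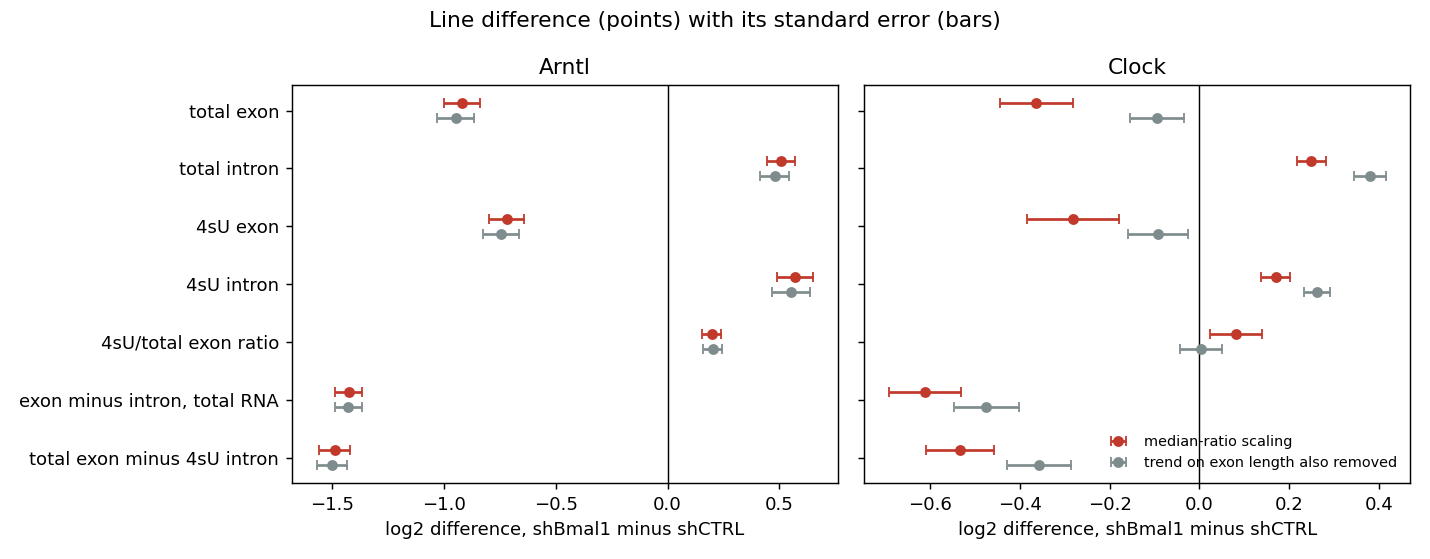
Line difference (log2, shBmal1 minus shCTRL) of Arntl (left) and Clock (right) in the 4 layers and the 3 differences between layers, from 24 libraries or cultures each; bars are standard errors of the limma fit, red as fitted and grey with the trend on exon length removed. Removing the trend moves the Clock total exon difference to -0.09 and leaves that of Arntl at -0.95.

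Exon length moved with the exon differences of all genes. The median line difference in total exons was 0.13 among 1846 genes of up to 1500 exon bases and fell with each longer bin, to -0.25 among 421 genes of 8000 to 12000 bases, of which 66.7% were called lower, and to -0.33 among 93 longer genes, of which 81.7% were. Arntl has 2869 exon bases and Clock 9699. Among 491 genes of 7760 to 12123 exon bases, a length like that of Clock, the median difference was -0.25, and 34.2% of them lay below Clock. Among 2607 genes of 2296 to 3586 bases, a length like that of Arntl, the median was 0.04, and 1.23% lay below Arntl. A setting chosen after seeing the data removed each library's trend on exon length before the fit. The Clock total exon difference was then -0.09 ± 0.060 and did not pass (limma adjusted p = 0.171), and its 4sU exon difference was -0.09 ± 0.067 (0.262). The Arntl total exon difference was -0.95 ± 0.082 (limma adjusted p = 3.22e-09). What the length trend comes from was not tested.

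**Figure D4:**
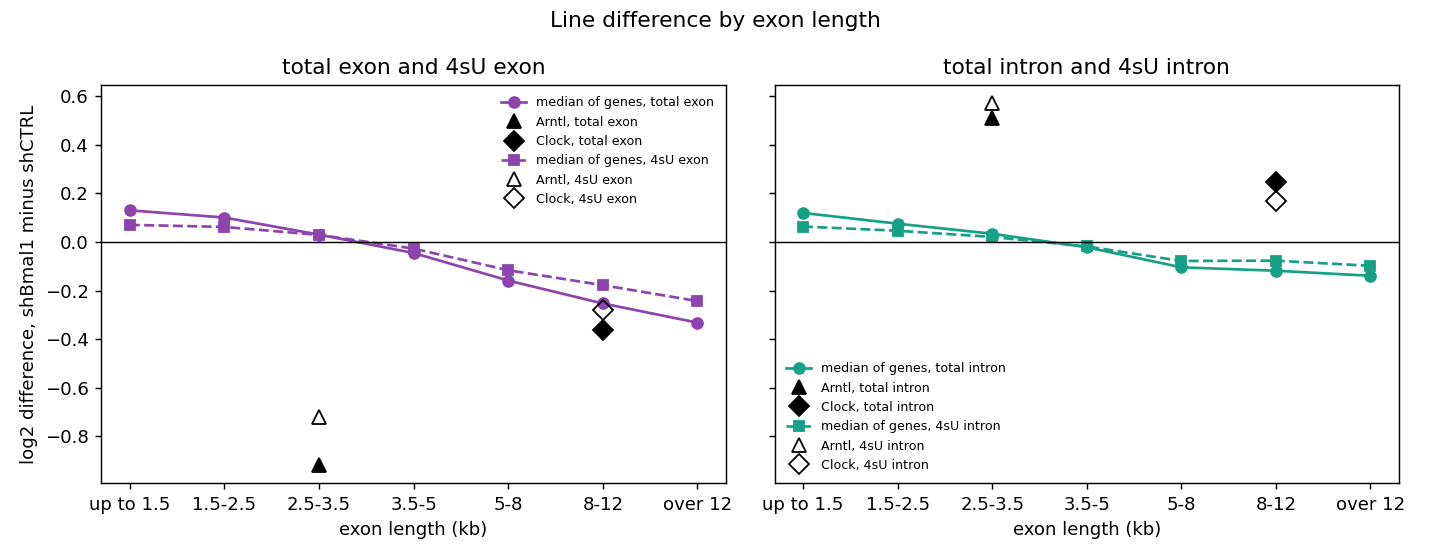
Median line difference (log2, shBmal1 minus shCTRL) of genes binned by exon length in kb, for exons (left) and introns (right), with Arntl (triangles) and Clock (diamonds) in their bins, filled for total RNA and open for 4sU RNA. Long genes lie below 0; Clock exons lie close to the median of their bin, and Arntl exons and the introns of both members lie away from it.

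Clock introns did not share this trend. The median intron difference of the like-length genes was -0.12 in total RNA and -0.08 in 4sU RNA, while Clock stood at 0.25 and 0.17, above 95.0% and 93.9% of them. With the trend removed the Clock intron differences were 0.38 ± 0.035 in total RNA (limma adjusted p = 4.90e-08) and 0.26 ± 0.029 in 4sU RNA (1.09e-06). Clock exon minus intron was then -0.47 ± 0.072 (limma adjusted p = 4.19e-05).

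Library by library, Clock exon levels followed the genes of like length. Within shBmal1 the correlation of the Clock level with their median was 0.91 in total RNA and 0.95 in 4sU RNA, and within shCTRL 0.71 and 0.85 (Pearson, n = 12 libraries of 1 group each, which share depth and scaling; a description only). The shBmal1 library at 34 h, where Clock exons peaked in both kinds of RNA, had the highest median of these genes, and it correlated least with the other shBmal1 libraries in both exon layers. The shCTRL library at 30 h, where Clock exons were lowest, had the lowest median of these genes and correlated least with the other shCTRL libraries. Without 34 h the Clock total exon difference was -0.40 (limma adjusted p = 0.000357), and without 30 h it was -0.41 (0.000155). The Arntl level also moved with the median of these long genes in shBmal1, with correlations of 0.72 in total exons and 0.76 in 4sU exons, against 0.07 and 0.09 in shCTRL. For Arntl introns they were 0.83 in total RNA and 0.61 in 4sU RNA in shBmal1, and -0.39 and -0.37 in shCTRL. With genes of its own length, Arntl exons correlated at -0.79 in total RNA and -0.71 in 4sU RNA in shBmal1. In shCTRL those values were -0.21 and -0.39. With each library's length trend removed, the 24-h amplitude of Arntl in shBmal1 total exons was 0.31 (limma adjusted p = 0.0429). That of Clock was 0.04 (0.864). Beyond this refit, the part of the length trend in these time courses was not tested.

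**Figure D5:**
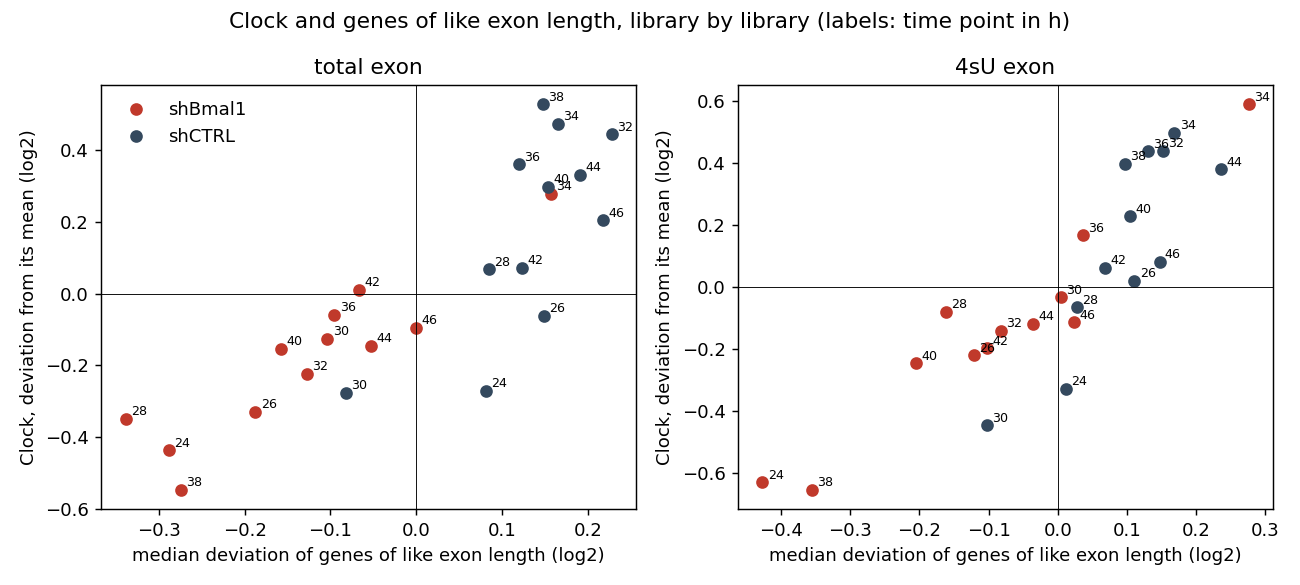
Deviation of Clock from its own mean against the median deviation of genes of like exon length (log2) in total exon (left) and 4sU exon (right); each point is 1 library, labelled with its time point in h, red for shBmal1 and dark for shCTRL. Clock is high where long genes are high, as in the shBmal1 library at 34 h, and low where they are low, as in the shCTRL library at 30 h.

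No 24-h rhythm of Clock passed before the length trend was removed. The total exon amplitude was 0.10 ± 0.081 in shBmal1 (limma adjusted p = 0.682) and 0.28 ± 0.081 in shCTRL, with a peak at 37.4 ± 1.11 h (0.130). The shCTRL value passed once the length trend was removed, with an amplitude of 0.25 ± 0.060 and a peak at 36.8 h (limma adjusted p = 0.0428). The difference between the lines in this rhythm was 0.19 and did not pass (limma adjusted p = 0.734). Intron amplitudes of Clock were at most 0.09 in both lines and both kinds of RNA, and none passed (limma adjusted p from 0.247 to 0.529). Across the 12 shBmal1 libraries the Clock and Arntl total exon levels had a Pearson correlation of 0.63, and across the 12 shCTRL libraries of 0.68; libraries of 1 line share depth and scaling, and this is a description.

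Among genes for factors that act on RORE sites, those for both REV-ERB proteins were lower in shBmal1. Nr1d1 ranged from 12.2 to 28.1 RPKM in shBmal1 total exons, with a median of 18.6, and from 18.3 to 151 RPKM in shCTRL, with a median of 52.1 (log2 difference -1.56 ± 0.055, limma adjusted p = 2.62e-15). Nr1d2 ranged from 0.633 to 1.43 RPKM in shBmal1, with a median of 1.06, and from 1.61 to 7.90 RPKM in shCTRL, with a median of 3.54 (-1.68 ± 0.072, limma adjusted p = 4.28e-14). The activator gene Rora was lower as well, at 0.883 to 1.90 RPKM in shBmal1 and 2.04 to 3.87 RPKM in shCTRL (-1.19 ± 0.095, limma adjusted p = 8.39e-10). The lines do not overlap for Nr1d2 and Rora. Of the 6 tested members of this list, 4 were lower, including the corepressor gene Ncor1 (-0.37 ± 0.059), and 1 was higher, the deacetylase gene Hdac3 (0.11 ± 0.033), where 33.1% of all genes were lower and 34.4% higher; the median was -0.78, against 0.01 for all genes tested. In shCTRL, Nr1d1 peaked at 44.2 h and Nr1d2 at 46.8 h, and Arntl at 35.9 h.

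Besides Arntl, 3 tested genes were listed as having RORE sites, and all 3 were higher in shBmal1, where 34.4% of all genes were. The repressor gene Cry1 ranged from 6.72 to 9.84 RPKM in shBmal1 and from 2.33 to 10.9 RPKM in shCTRL (0.67 ± 0.045, limma adjusted p = 5.39e-11). Nfil3, a repressor acting on D-boxes, ranged from 9.84 to 21.4 RPKM in shBmal1 and from 1.54 to 10.1 RPKM in shCTRL (1.23 ± 0.096, limma adjusted p = 5.64e-10). Cdkn1a, which encodes the cell cycle inhibitor p21, was higher by 0.44 ± 0.068 (limma adjusted p = 9.40e-06). The ranges of the lines overlap for all 3. Their 4sU introns were higher too, by 0.85 ± 0.062, 1.02 ± 0.120 and 0.46 ± 0.107.

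Among 16 E-box targets of the pair, 6 were lower and 3 higher in shBmal1 total exons, with a median of -0.13; of all genes 33.1% were lower and 34.4% higher, so the share lower was near that of all genes. The lower ones included the D-box activator genes Dbp (-1.31 ± 0.084) and Tef (-0.79 ± 0.063) and the Period gene Per3 (-1.29 ± 0.061), and the higher ones were Cry1, Cry2 (0.43 ± 0.057) and Per2 (0.17 ± 0.048). In 4sU introns 7 of 15 were lower and 2 higher, where 22.3% of all genes were called lower and 22.1% higher. A 24-h rhythm was called for 9 of the 16 in shBmal1 (11.1% of all genes) and 14 in shCTRL (3.6% of all genes), and the rhythms of the lines differed for 12 (0.807% of all genes). 

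By likeness of the total exon course over the 12 shCTRL libraries (Pearson correlation of log2 levels, 10909 genes compared), the genes closest to Arntl were Sash1 (0.97), Srgap1 (0.97), Adamts4 (0.96), Gas7 (0.96) and Prag1 (0.96). The genes most opposed were Per1 (-0.98), Dgat2 (-0.98), Dbp (-0.98), Klf11 (-0.96) and Tef (-0.96). Of the 5 closest, all but Srgap1 (limma adjusted p = 0.144) were called rhythmic in shCTRL. In shCTRL 4sU introns the correlation with Arntl was 0.67 for Srgap1, -0.53 for Klf11 and -0.52 for Dgat2. The other named genes stood at 0.88 or more in size there. In total exons, 27 genes had a correlation above 0.9 and 30 below -0.9. The closest to Clock were Ints2 (0.94), Usf3 (0.92), Atp7a (0.92), Ipmk (0.92) and Wsb1 (0.92). Their correlations with Clock in shCTRL 4sU introns were 0.37, 0.63, 0.86, 0.62 and 0.35, in that order. Clock ranked 306 among genes by likeness to Arntl in total exons. Of the 5 genes closest to Clock only Wsb1 was called rhythmic in shCTRL (limma adjusted p = 0.00607). Their exon lengths ranged from 2459 bases in Wsb1 to 12695 in Usf3.

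Depth, the read total behind exon RPKM, was similar across groups. It was 50977879 to 69829031 reads per library in shBmal1 total RNA and 51841130 to 67576474 in shBmal1 4sU. In shCTRL it was 53931845 to 76260143 in total RNA and 48873013 to 71451107 in 4sU. Fibroblast markers summed to 4195 to 5223 RPKM in shBmal1 total exons and 5428 to 6173 RPKM in shCTRL, over 10 of 12 listed genes. Of these 10, 7 were lower and 3 higher in shBmal1, with a median log2 difference of -0.67, where 33.1% of all genes were lower and 34.4% higher. Leukocyte markers (3 of 6 listed genes) summed to 17.0 to 23.2 RPKM in shBmal1 and 13.4 to 20.5 RPKM in shCTRL. The 1 epithelial marker in the table was at 7.21 to 13.4 RPKM in shBmal1 and 2.19 to 4.45 RPKM in shCTRL. The 1 adipocyte marker was at 2.02 to 2.84 RPKM in shBmal1 and 3.00 to 4.49 RPKM in shCTRL, and the 1 endothelial marker stayed under 1 RPKM in both lines. Their part in the results was not tested.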

How the data were processed

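The deposited exon and intron tables hold RPKM, made by the authors from strand-specific, paired-end, rRNA-depleted libraries; Trim Galore, HOMER 4.11.1 and mm10 (GRCm38.p6) are named per the submitters' processing notes, and the sources used here name no aligner. Read totals, exon lengths and read numbers were recovered from the RPKM steps. The total behind intron RPKM was the exon total in 36 libraries but 1.35 to 1.39 times it in each shBmal1 4sU library (12 in all), so deposited intron RPKM was not on 1 scale. Each layer was therefore scaled by the median ratio to its geometric mean library. limma 3.58.1 in R 4.3.3 was fitted to log2(scaled RPKM + 0.1 for exons or 0.02 for introns); the pseudocount shrinks fold changes of low genes. A gene was tested if its mean reached 0.5 RPKM in exons or 0.1 RPKM in introns. Each line had its own mean and harmonic terms with periods of 24 h and 12 h, with trended, robust empirical Bayes variance and Benjamini-Hochberg adjustment over all genes; values after ± are standard errors unless an SD is named. The steps were tested on simulated data.

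With 1 library per time point, p-values measure the scatter of single libraries around the fitted curves. Members, lists and tests were chosen with earlier results of these data known. Named besides the members were genes of the lists, every list gene being eligible, and the 5 most and 5 least alike in time course. The lists cover 107 genes, of which 32 were not analysed here. Annotated genes that overlap a member are Gm33721 in Arntl, and Ube2n-ps1 and Gm7467 in Clock; the sources used here do not say whether counting used strand. Promoters are from RefSeq (GRCm38.p6); both members matched by symbol. The hairpin sequence was not used here.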

Additional observations from a re-analysis of the deposited data

Results flagged for a closer look

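The 24-h rhythm of Arntl differed between the lines by a test of the difference itself in each of the 4 layers. The distance between the fitted 24-h terms, shBmal1 minus shCTRL on the log2 scale, was 1.32 in total exons, 1.05 in total introns, 1.28 in 4sU exons and 1.05 in 4sU introns. With any 1 time point left out it lay between 1.26 and 1.36 in total exons, 0.99 and 1.09 in total introns, 1.248 and 1.32 in 4sU exons, and 0.96 and 1.13 in 4sU introns, and it passed limma's test each time. The likeness of each library to the others of its group of 12 was described by correlation, and no outlier test was run.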

How the results depend on the processing

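Of 1406 alternative values for 72 results, 1366 kept their direction and side of the threshold, and 56 results did so under every setting run. The fit with the time point as a replicate block gave a line difference of 0.51 (adjusted p = 0.0696) for Arntl total introns and 0.57 (0.0542) for 4sU introns, and changed no other call; the same time points of the 2 lines did not deviate together throughout (correlations above 0.1 for 9 of 12 pairs in total exons, 4 in total introns, 10 in 4sU exons and 8 in 4sU introns, with the lowest at -0.33 and the highest at 0.60, both in 4sU exons). With no time terms the Arntl differences of 0.51 in total introns, -0.72 in 4sU exons and 0.57 in 4sU introns and the Clock difference of -0.28 in 4sU exons missed the threshold. On the RPKM as deposited the Clock values were -0.29 in 4sU introns, 0.00926 in total exon minus 4sU intron and -0.21 in 4sU exons, that of Arntl 4sU introns 0.11, and the 12-h amplitude of Arntl total introns in shBmal1 0.31, which passed (0.0449), as it did at 0.31 on the recovered exon totals, a setting added after seeing the data. There, the Clock 4sU intron difference kept its sign. The Arntl 24-h amplitude in shBmal1 total exons missed the threshold at 0.28 on the RPKM as deposited, at 0.30 with no filter, with 24-h terms alone and in the line alone, and at 0.27 with a linear term. With the length trend removed, also added later, the Clock differences were -0.0949 in total exons and -0.0915 in 4sU exons, and its shCTRL total exon amplitude was 0.25. With time points left out singly, amplitudes of Arntl in shBmal1 ranged from 0.20 to 0.38 (total exon), 0.0724 to 0.23 (total intron), 0.11 to 0.30 (4sU exon) and 0.0699 to 0.29 (4sU intron), its 12-h amplitude in shCTRL total exons from 0.31 to 0.45, and the Clock 4sU exon difference from -0.33 to -0.20. The differential rhythm of Arntl passed in exon minus intron with a pseudocount 10 times larger (0.57) and in total exon minus 4sU intron with it (0.51) or without 32 h (0.49). Read numbers limit Arntl most at its trough, with 265 exon reads in the lowest library. Causes of these changes were not tested.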

Other observations

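Arntl2, the paralog of Arntl, had a median of 0.558 RPKM in shBmal1 and 0.575 RPKM in shCTRL total exons (log2 difference -0.01 ± 0.090, limma adjusted p = 0.933). Of 7 tested members of the wider bHLH-PAS family 4 were lower and 1 was higher in shBmal1 (33.1% and 34.4% of all genes), with no 24-h rhythm called by limma in either line; 2 in shBmal1 and 1 in shCTRL had an unadjusted p under 0.05. The lower ones included the coactivator genes Ncoa1 (-0.45 ± 0.066), Ncoa2 (-0.75 ± 0.040) and Ncoa3 (-0.61 ± 0.034), and the higher one was the dioxin receptor gene Ahr (0.42 ± 0.073). The lower ones had a median exon length of 7385 bases, and with the length trend removed 3 were lower and 1 higher.

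Of 27 cofactors and modifiers of the BMAL1 or CLOCK protein, 12 were lower and 6 higher in shBmal1 total exons, with a median of -0.05, where 33.1% of all genes were lower and 34.4% higher. Those lower included the acetyltransferase genes Ep300 (-0.52 ± 0.031) and Crebbp (-0.28 ± 0.033) and the methyltransferase gene Kmt2a (-0.45 ± 0.036). Those higher included the scaffold gene Rack1 (0.38 ± 0.042) and the kinase subunit gene Csnk2b (0.29 ± 0.038). Sirt1, Stub1 and Sumo3 had no single exon length across the groups, which can shift their RPKM; Sirt1 and Stub1 are among the 12. Leaving these 3 out, the lower ones had a median exon length of 8329 bases and the higher ones of 3477, against 3025 for 10311 genes. With the length trend removed 6 of the remaining 24 were lower and 10 higher (30.4% and 33.8% of all genes). Ep300 was then at -0.26 ± 0.033 and passed. Crebbp at 0.01 ± 0.036 and Kmt2a at -0.06 ± 0.048 did not pass (limma adjusted p = 0.797 and 0.286). Rack1 at 0.26 ± 0.033 and Csnk2b at 0.16 ± 0.031 still passed. The RORE factor counts stayed at 4 lower and 1 higher of 6. A 24-h rhythm was called for 1 of the 27 in shBmal1 (11.1% of all genes) and 0 in shCTRL (3.6%) by limma at an adjusted p under 0.05, and 6 in shBmal1 and 4 in shCTRL had an unadjusted p under 0.05.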
